A study of Homo sapiens with 12 samples.

Results

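The subject is the resting transcriptome of control 293T cells, as read on the 4 arrays labelled with an empty vector. They were taken by that label alone, and the 8 arrays of the other vectors in the series of 12 were not used. The cells had received an empty control plasmid with polyethylenimine (PEI), a cationic transfection reagent, and were collected 48 hours later. The labels describe each array as a biological replicate, without saying whether these were separate cultures on separate days, so the spread given here is that between these 4 samples.

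All 4 samples were 293T cells grown on plates in DMEM with fetal bovine serum and penicillin/streptomycin. RNA was extracted with Trizol, and 12 micrograms of total RNA per sample were turned into biotin-labelled cRNA for an oligonucleotide array. The vector's backbone is not named in the labels. Untransfected cells were not analysed here, so what the line expresses by itself cannot be told apart from what transfection adds.

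293T is a derivative of the HEK293 line, which was made from human embryonic kidney cells with a fragment of adenovirus DNA that encodes E1A and E1B. The T in its name stands for the large T antigen of simian virus 40. E1A and large T antigen both bind the retinoblastoma family of proteins, which otherwise hold E2F transcription factors in check, and large T antigen also binds p53. The line is used as a general host for plasmids because it takes up DNA readily and grows fast, and which cell of the kidney preparation gave rise to it has long been discussed.

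Each array had 54675 probe sets, and each value is a signal, the deposited intensity of 1 probe set on a linear scale. Of these probe sets, 41097 were annotated to 1 gene symbol, and they represented 19775 genes. A gene was given the signal of its brightest probe set, by mean log2 signal over the 4 arrays, and genes were ranked from 1, the brightest. A rank orders probe sets by brightness, and since probes also differ in how well they bind, a difference in rank between genes is not a measured difference in transcript number. The bar for a signal above background was set with 135 probe sets of 102 olfactory receptor genes, smell receptors that a kidney line is not known to express. Their median signal was 21.8, and the 95th percentile, a signal of 105, served as the reference.

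By this bar 11500 genes (58.2%) were above the reference in the mean of the 4 arrays, and 9879 genes (50%) were above it in every single array. The remaining 8275 genes were not above it, which is a bound and not evidence that the transcript is missing. A signal over 1000 was reached by 5475 genes, over 10000 by 362 and over 20000 by 112. Protein-coding genes were above the reference in 65.8% of 16521 cases, transcribed pseudogenes in 32.1% of 424 and long non-coding RNA genes in 17.3% of 2658. The gene lists below are set against the 58.2% of all genes, which lies under the 65.8% of protein-coding genes. Some lists also have counts under other settings, where the share of all genes differs. It was 71.0% above the 40th percentile of all probe sets and 45.4% above the 99th percentile of olfactory receptors. With a gene's median probe set it was 49.5%. The share also followed how many chances a gene had, from 40.9% of genes with 1 probe set to 84.9% of genes with 4 or more. Of 10523 genes with several probe sets, all probe sets were above the reference for 3206, some for 4509 and none for 2808.

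**Figure D1:**
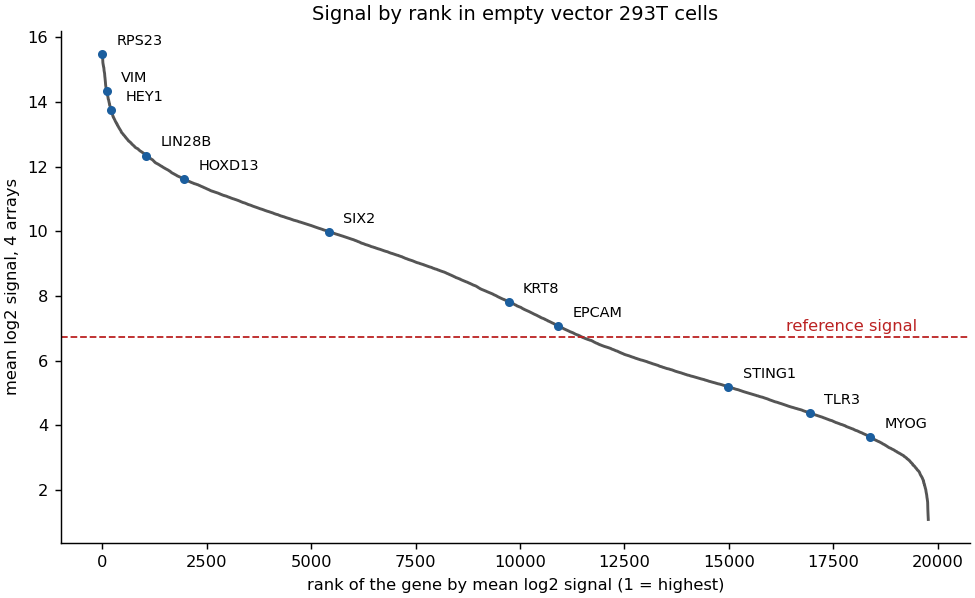
Mean log2 signal over the 4 empty vector arrays (vertical axis) for each of 19775 genes in order of rank (horizontal axis), with 11 genes marked as points and the reference as a dashed line. The curve crosses the reference, 6.72 on the log2 scale, after 11500 genes; RPS23 lies at its upper end and MYOG near its lower end.

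The arrays resembled each other closely where there was signal. Over genes above the reference, the correlation of log2 signals between pairs of arrays ran from 0.974 to 0.985, and over all probe sets from 0.900 to 0.912; the points are genes on the same array design and are not independent replicates. The median SD of log2 signal over the 4 arrays was 0.18 for genes above the reference, a fold of 1.13, and 0.98 for the rest. Array 1 was the array farthest from the median for 34.4% of genes above the reference, where an equal share would be 25%. The 24 probe sets for Bacillus control transcripts, which a laboratory may add before labelling, had mean signals of 2062, 371, 27.6 and 24.0 on arrays 1 to 4, so arrays 1 and 2 carried them and arrays 3 and 4 did not. The part of this difference in the spread between arrays was not tested. The ratio of the 3′ to the 5′ probe set was 1.33 ± 0.125 for GAPDH and 2.48 ± 0.592 for ACTB (SD, n = 4). For ACTB it was 2.46, 3.30, 1.90 and 2.26 on arrays 1 to 4, highest on array 2. Of 6 probe sets for 18S and 28S ribosomal RNA, 1 was above the reference on array 3 and none on the others.

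The brightest transcripts were those of protein synthesis and of the mitochondrial genome. Among the 25 genes of highest signal, 15 encode ribosomal proteins and 4 lie in the mitochondrial genome. RPS23, a protein of the small ribosomal subunit near its decoding centre, was first, with signals of 48322, 45295, 44461 and 43274 on arrays 1 to 4. Array 1 was its highest and array 4 its lowest. RPS6, the ribosomal protein phosphorylated by S6 kinase, gave 44795, 45641, 45015 and 40621, and RPS10 gave 43619.9, 45561, 43684 and 39847. The large-subunit proteins RPL31 (42896 ± 2955), RPL37A (41902 ± 2858), RPL39 (41254 ± 2045) and RPL41 (38927 ± 3429.7; mean ± SD, n = 4, here and below) stood in the first 12 ranks. RPS19, RPS18, RPL7, RPS15, RPS4X, RPL8, RPL10A and RPLP1 completed the ribosomal genes, between ranks 7 and 24.

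Of the 79 cytosolic ribosomal protein genes listed, 53 had a probe set with a single symbol, and 52 of them were above the reference. The exception was RPLP2, an acidic stalk protein, at 112, 182, 64.8 and 67.5, a gene named because it was the only member not above. Within the first 100 genes, 47 encode ribosomal proteins. EEF1A1, which brings aminoacyl-tRNA to the ribosome, was at rank 11 with 39485, 40694, 42165 and 34980.0. EEF2, which moves the ribosome along the message, followed at rank 65 with 27597 ± 3202, and EEF1D at rank 476 with 8453 ± 1059. NACA, a chaperone of nascent chains at the ribosome exit, had 36319 ± 3102, and TPT1, a growth-related tumour protein, 37605 ± 2798.

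Within this top tier array 4 was the lowest array for 22 of the 25 brightest genes and for 83 of the brightest 100, by a median of -0.12 on the log2 scale from the gene's mean. The highest of the 25 was array 2 for 13 genes, array 1 for 10 and array 3 for 2. After quantile normalization, which gives the arrays the same distribution, array 4 was lowest for 5 of the 25 and 18 of the 100.

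**Figure D2:**
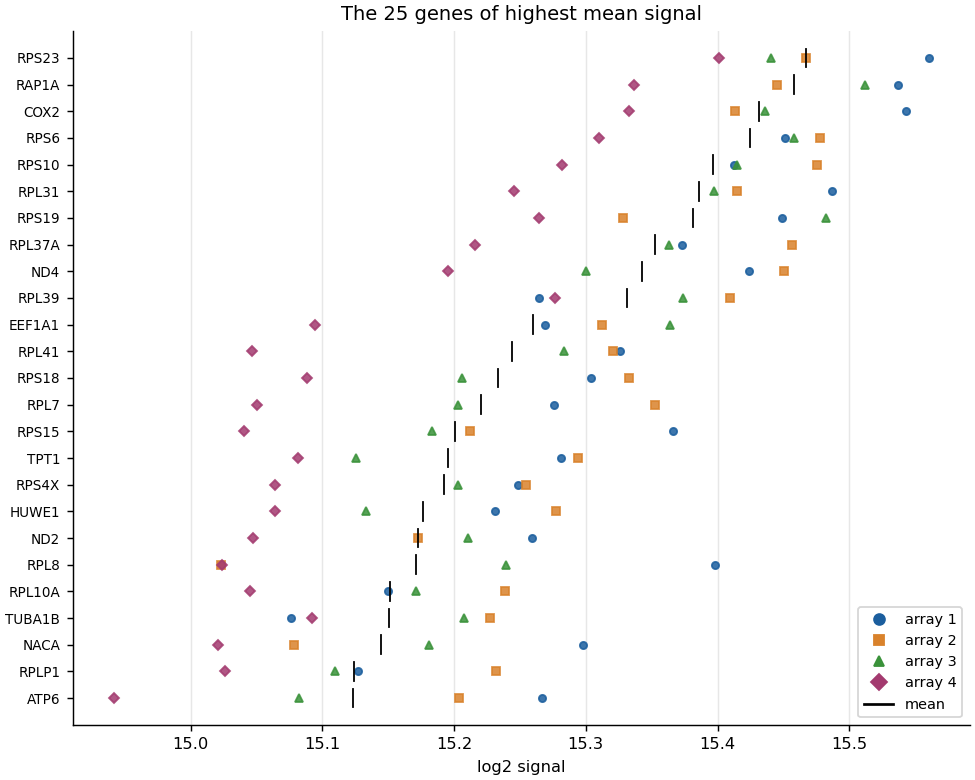
Log2 signal of the 25 brightest genes (rows, in order of rank) on each of the 4 arrays (coloured markers), with the mean as a vertical line. The array 4 marker is at the left edge for 22 of the 25 genes.

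Some of the brightest genes differed widely between their own probe sets. RAP1A, a small GTPase of the RAS family, was at rank 2 with 47549, 44622, 46727 and 41378, but on a probe set of the _x_at type, whose probes may also bind other transcripts. Its other 3 probe sets gave mean signals of 35161, 3886 and 450.3. HUWE1, a very large ubiquitin ligase, was at rank 18 with 37095 ± 2461, also on an _x_at probe set, and its other 4 probe sets gave mean signals of 6922, 238, 95.1 and 28.9. Which of these values reflects each gene was not tested. Of the 25 brightest genes, 22 rested on probe sets of the _s_at or _x_at type, which are shared among transcripts or genes, and 12 on _x_at.

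The mitochondrial genome encodes subunits of the respiratory chain, and its transcripts carry poly(A) tails that the labelling step can use. COX2 (cytochrome c oxidase subunit, of the mitochondrial genome) was at rank 3 with 47751, 43629, 44331 and 41273. ND4 gave 43962, 44786, 40346 and 37519.8, and ND2 39215, 36931, 37913 and 33861. ATP6, a subunit of ATP synthase, stood at rank 25 with 35829.7 ± 3503. All 7 mitochondrial genes measured were above the reference, among them COX1 at 34726 ± 5328, COX3 at 3801 ± 565 and ND6 at 969 ± 434. ND6, the gene read from the opposite strand, had the lowest signal and, on the log2 scale, the widest spread (an SD of 0.84), with 380 on array 1 against 904 to 1303 on the others. COX1, COX3 and ND6 were named after their values were seen.

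The promoter of RPS23, the brightest gene, is shown because promoters of this kind recur among the bright genes. These are the 250 bases before the start of transcription in the RefSeq promoter table (GRCh38.p14, chr5:82278355-82278604, minus strand), 5′ to 3′, with CpG dinucleotides in capitals.
RPS23: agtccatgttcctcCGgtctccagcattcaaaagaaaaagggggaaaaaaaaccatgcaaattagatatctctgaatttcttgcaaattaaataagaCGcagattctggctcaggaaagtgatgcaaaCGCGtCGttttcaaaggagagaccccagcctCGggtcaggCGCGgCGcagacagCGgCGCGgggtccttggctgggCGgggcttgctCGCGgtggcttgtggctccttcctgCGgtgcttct
It holds 16 CpG dinucleotides, 0.898 of the number its base composition would give, and its G and C content is 53.6%.

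The genes of energy metabolism were bright as a group. All 16 glycolysis genes were above the reference, led by GAPDH with 30599, 30715, 28639.8 and 26264, LDHB with 28564, 29756, 27121 and 26092 and LDHA with 26260.2, 28615, 23050.4 and 19986. LDHA and LDHB, the 2 subunits of lactate dehydrogenase, were highest on array 2 and lowest on array 4. All 35 measured genes in the list of the respiratory chain and ATP synthase were above it too, with ATP5PB (24122 ± 2219), COX6A1 (21991 ± 2054) and COX7C (20129 ± 1311) the brightest. The lowest of those 35 had a geometric mean signal of 1806.

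Protein folding and breakdown were represented in full among measured members. The 21 chaperone genes were all above the reference, from 1682 upward in geometric mean signal. HSP90AA1, the inducible cytosolic HSP90, gave 29917, 31555, 28398 and 27014, HSPD1, the mitochondrial HSP60, 29134 ± 1815, and PTGES3, the HSP90 cochaperone p23, 24972 ± 1251. All 13 measured genes of the proteasome core were above it, none under 5045, with PSMB1 at 16479 ± 1352, PSMA4 at 12668 ± 821 and PSMA1 at 10861 ± 812. Across the 10 lists of core functions, 232 of 233 measured genes were above the reference (99.6%, against 58.2% of all genes).

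All 30 genes of the replication fork and all 30 mitosis genes were above the reference, with median ranks in the 93.5th and 93.9th percentile of all genes. MCM2 and MCM6, subunits of the replicative helicase, gave 10969.9, 12624, 11736 and 12031 and 10504, 11968, 10113 and 10596. TYMS, which makes thymidylate for DNA, gave 11845 ± 1199. CDK1, the kinase that drives mitosis, gave 11014, 8782, 9053 and 10057, the securin PTTG1 9503 ± 612 and the checkpoint protein BUB3 9023 ± 412. The arrays did not separate into high and low ones across these 6 genes, since array 1 was highest for TYMS, CDK1 and PTTG1 and lowest for MCM2 and BUB3.

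The cell cycle genes upstream of E2F were all above the reference as well, 22 of 22, including inhibitors of cyclin-dependent kinases. CDK4, which phosphorylates the retinoblastoma protein, gave 7942, 8431, 7355 and 7043. CDKN2A, which encodes the CDK4 inhibitor p16 and the p53 activator ARF, was nearly as high in rank, at 627 against 560, with 7695, 6009.9, 8089.6 and 6930.3. CCND2, a D-type cyclin, gave 3872 ± 662. The probe sets of CDKN2A used here do not separate p16 from ARF.

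All 10 measured proteins that E1A or large T antigen are known to bind were above the reference at the RNA level. The transcriptional corepressors CTBP2 and CTBP1, which bind the tail of E1A, led with 5597, 6903, 6787 and 7070.0 and 5194, 5299.9, 6044 and 5684. BUB1, a mitotic checkpoint kinase, gave 2598 ± 183. The retinoblastoma gene RB1 itself gave 2014, 1936, 1698 and 2128, a value named after it was seen. The DNA damage response list was above the reference in all 22 measured genes. Its brightest were the Ku subunits XRCC6 (17110.1 ± 1263) and XRCC5 (12876 ± 967), which bind broken DNA ends, and RPA3 (11919 ± 1544), a subunit of the single-strand binding protein RPA.

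**Figure D3:**
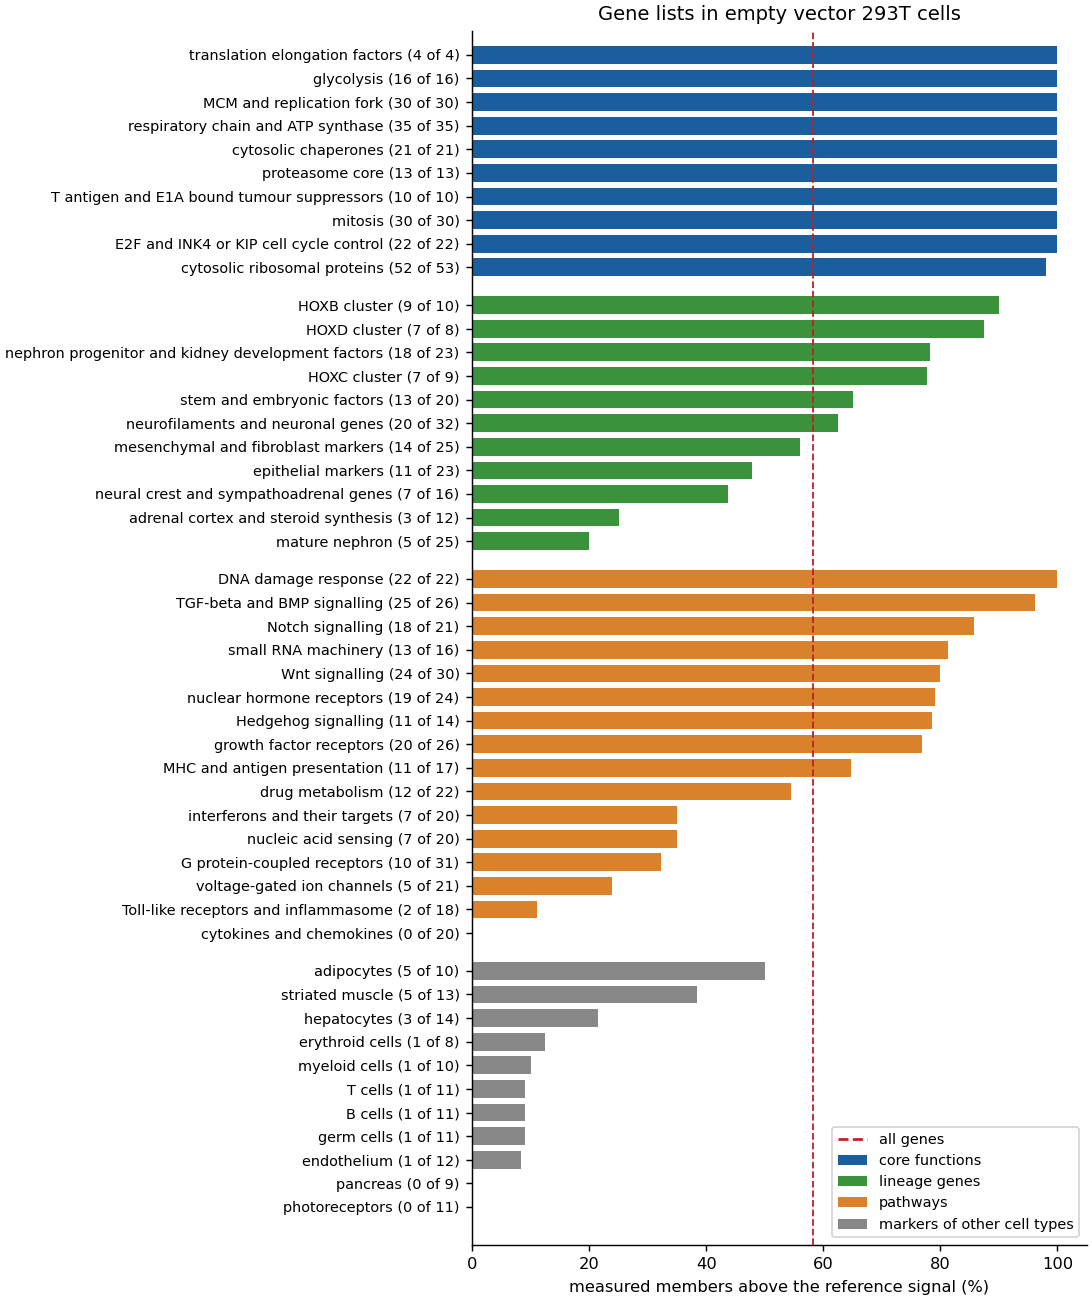
Percentage of measured members above the reference signal (horizontal axis) for each gene list with at least 3 measured members, with counts in brackets and colours for core functions, lineage genes, pathways and markers of other cell types. The dashed line marks all genes, 58.2%; the core lists lie at or near 100, and most lists of other cell types lie below the line.

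Where a step of metabolism or structure is served by several genes of a family, the signals gave a pattern of bright and dim members. The values within a family come from different probe sets, so they show which members were above the reference and not a ratio of transcripts. Of hexokinases, HK1 (3214 ± 205) and HK2 (1164 ± 218) were above it and HK3, known from leukocytes, was not (10.6, 9.59, 10.6 and 15.7). The aldolase of most tissues, ALDOA, gave 16099 ± 2132 and the brain form ALDOC 260.4 ± 26.99. Pyruvate kinase was represented by PKM (13535, 14839.7, 13968 and 12062), while the liver and red cell form PKLR was not above the reference (9.62, 18.1, 53.9 and 80.8). Phosphoglycerate kinase had PGK1 (15349 ± 1371) above it and the testis form PGK2 (60.3, 169, 134 and 49.8) not above it, though without array 4 both were. Enolase had ENO1 (20914 ± 1289), ENO2, the neuronal form (640.3 ± 16.9), and ENO3, the muscle form (426 ± 22.7), all above it. LDHC, the testis form of lactate dehydrogenase, was also above the reference, at 444 ± 64.9.

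Creatine kinase had 1 of its 3 measured genes above the reference. CKB, the brain form, gave 8721, 9065, 9536 and 9284, the highest on array 3 and the lowest on array 1. The muscle form CKM gave 10.1, 27.01, 4.91 and 4.47 and the muscle mitochondrial form CKMT2 71.6, 113, 11.7 and 14.3; neither was above the reference in the mean, and CKMT2 reached 113 on array 2. The adenine nucleotide carrier of the mitochondrial inner membrane had SLC25A5 (25868 ± 1745) and SLC25A4 (1470.1 ± 82.8) above it, and not the testis form SLC25A31 (50.98, 4.52, 66.3 and 54.1). COX4I1 gave 16329 ± 521, and COX4I2, the lung isoform, 142 ± 14.6.

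Among cytoskeletal families, ACTB gave 31876, 34101, 32869 and 29632, the smooth muscle actin ACTA2 2448 ± 162, the skeletal ACTA1 193 ± 55.1 and the cardiac ACTC1 108 ± 15.7, with ACTG2 below the reference (40.6 ± 21.1). The beta tubulins TUBB (22521 ± 2844), TUBB4B (12234 ± 904), TUBB3 (8125 ± 504), TUBB2A (6056 ± 708), TUBB6 (3267 ± 463), TUBB2B (3021 ± 1008) and TUBB4A (279 ± 14.4) were above it, and the platelet form TUBB1 (53.1 ± 11.9) was not. TUBA1B, an alpha tubulin, was among the 25 brightest with 36413 ± 1956. Lamins B2, B1 and A/C were all above the reference, with LMNB2 at 2148 ± 287, LMNB1 at 1549.8 ± 348 and LMNA at 935 ± 162.

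Among other families, the glucose transporters SLC2A1 (380.2 ± 77.8) and SLC2A3 (227 ± 39.98) were above the reference, and SLC2A5 (103 ± 30.5), the insulin-regulated SLC2A4 (8.04 ± 4.01) and the liver form SLC2A2 (5.95 ± 2.56) were not. The maintenance DNA methyltransferase DNMT1 (6260.2 ± 634) and the de novo enzymes DNMT3B (1506 ± 114) and DNMT3A (632 ± 35.2) were above it, and the germline cofactor DNMT3L (22.8 ± 23.4) was not. MYC gave 5723, 5266, 5723 and 6051, the lowest on array 2, and MYCL 239 ± 27.7. MYCN was below the reference on all of its 10 probe sets, the brightest at 62.9 ± 17.5. The HSP90 family was complete, with HSP90AB1 (21197 ± 1246), the mitochondrial TRAP1 (7471 ± 311) and the endoplasmic reticulum HSP90B1 (4451 ± 841). EEF1A2, the elongation factor of neurons and muscle, varied from 832 to 2035 over the arrays, and HRAS gave 2967 ± 560.0.

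Of 30 listed genes of kidney development, 23 had a probe set and 18 were above it. Of 30 listed genes of the mature nephron, 25 had one and 5 were above it (20%, against 58.2% of all genes). The nephron count depends on the bar, with 14 above the 40th percentile of all probe sets, 8 above a reference without the OR7E family of olfactory receptors and 2 above the 99th percentile of olfactory receptors. The kidney development count under the same 3 bars was 19, 18 and 13. Of all genes, 71.0%, 63.7% and 45.4% were above these 3 bars. FOXD1, a factor of the kidney stroma, was the brightest of the first list with 2326, 2378, 2346 and 2570.3. SIX2, which maintains nephron progenitors, gave 1005, 985, 1036 and 1043, and CITED1, found in the same progenitors, 940.5, 895, 987 and 877. The 4 arrays differed by little for these genes, with an SD of log2 signal of 0.07, 0.04 and 0.08.

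GATA3, a factor of the nephric duct and of sympathetic neurons, gave 1168 ± 112. SIX4 gave 1097 ± 90.8, POU3F3, a factor of the distal nephron and brain, 1071 ± 44.1, SALL1 953 ± 105 and EYA4 954 ± 138. PAX8 and PAX2, factors of the renal epithelium that were named outside the rule after their values were seen, had 239.9, 349, 275 and 349 and 65.98, 153, 124 and 149. PAX8 was above the reference in every array on 1 of its 8 probe sets, and PAX2 fell to 66.0 on array 1. LHX1 (42.9 ± 22.02), OSR1 (15.8 ± 12.3) and TCF21 (13.2 ± 8.99), genes of the early nephric field and stroma, were the lowest of the list.

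The 5 nephron genes above the reference were PODXL, a sialomucin of podocytes (902, 833, 771 and 671), CYP27B1, which activates vitamin D (449.8, 578, 431 and 449), LRP2, the proximal tubule receptor megalin (174, 276, 200.1 and 273), AQP3, a collecting duct water channel (224, 207, 222 and 216), and SCNN1A, a subunit of the epithelial sodium channel (110.2, 130.3, 141 and 110.2). Against each array's own reference, 209.5 on array 2, AQP3 and SCNN1A were not above it in every array. Each was above the reference on 1 of its 3 probe sets. The other sodium channel subunit named, SCNN1B, gave 4.76, 24.5, 10.6 and 27.3. CDH16, a cadherin of kidney epithelium, gave 6.04, 4.48, 3.53 and 7.45, and SLC22A8, an organic anion transporter, 9.79, 69.5, 19.2 and 9.99. Transporters and channels of the tubule that were named after their values were seen were not above it either, with AQP1 at 74.97 ± 24.2, SLC12A1 at 72.8 ± 54.6 and SLC34A1 at 56.8 ± 38.2. In RNA from a whole culture, fewer cells of a type and less RNA per cell cannot be told apart.

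Genes known from neurons were above the reference in 20 of 32 measured cases (62.5%), near the 58.2% of all genes and the 65.8% of protein-coding genes. With the 99th percentile of olfactory receptors as the bar, they were above it in 12 cases, against 45.4% of all genes. The neuronal intermediate filament NEFM was at 4012, 4377, 5234 and 3872, NEFL at 2595, 3156, 2457 and 2573 and INA at 1442, 1487, 1631 and 1595. Array 3 was highest for NEFM and INA, and array 2 for NEFL. UCHL1, a deubiquitinase abundant in neurons, gave 6672, 6263, 7112 and 6324, and TUBB3, the neuronal beta tubulin, 7797, 7871, 8875 and 7955. The RNA-binding protein ELAVL2 gave 1452 ± 254 and the adhesion molecule NCAM1 562 ± 72.4, the latter on 2 of 7 probe sets. At the other end stood DCX, a marker of migrating neurons (17.3, 5.52, 13.2 and 32.6), GRIA2, a glutamate receptor subunit (22.9, 42.6, 5.38 and 20.6), ELAVL3 (54.4, 9.99, 19.7 and 33.7) and STMN2 (91.5, 7.89, 44.1 and 26.1), the last named after its values were seen.

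In the neural crest and sympathoadrenal list, 7 of 16 measured genes were above the reference (43.8%, against 58.2% of all genes), all of them transcription factors. They were TFAP2A (2810.4 ± 441), GATA3, ISL1 (1045 ± 47.2), GATA2 (906 ± 108), HAND1 (675 ± 52.9), INSM1 (475 ± 63.5) and FOXD3 (324 ± 50.9), and each was above it in every array. The enzymes and carriers of catecholamine synthesis were not, with TH at 45.6, 5.17, 55.7 and 4.06, DBH at 8.04, 12.9, 7.01 and 12.1 and SLC18A1 at 4.96, 17.8, 10.1 and 11.3. The adrenal cortex list had 3 of 12 above the reference (25%), namely FDX1 (3448 ± 205), CYB5A (2089 ± 195) and POR (695 ± 57.4), electron carriers that many tissues use. The steroid-making enzymes CYP11A1 (6.22 ± 1.85), CYP11B1 (12.2 ± 5.53) and CYP17A1 (14.8 ± 8.95) had the lowest ranks of that list.

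Of the stem and embryonic list, 13 of 20 measured members were above the reference (65%, against 58.2% of all genes and 65.8% of protein-coding genes). MYC and LIN28B, which blocks the maturation of let-7 microRNAs, were its brightest genes, LIN28B with 4767, 5821, 4883 and 5375. The paralog LIN28A was below the reference in all arrays, with 32.7, 22.8, 34.3 and 26.4. The chromatin proteins HMGA1 (4622 ± 456) and HMGA2 (2966 ± 295) and the fetal RNA-binding proteins IGF2BP2 (2409.5 ± 191) and IGF2BP3 (2381 ± 196) followed. HMGA2 was above the reference on 1 of its 9 probe sets. GPC3, a fetal glypican, gave 689.6, 859, 1248 and 1268, lower on arrays 1 and 2 than on arrays 3 and 4. NANOG gave 61.9, 13.6, 51.7 and 24.8 and DLK1 8.76, 10.4, 13.8 and 5.57.

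Of epithelial markers, 11 of 23 were above the reference (47.8%), against 58.2% of all genes. Of mesenchymal and fibroblast markers 14 of 25 were (56%), near the share of all genes. With the 99th percentile of olfactory receptors as the bar, 5 and 10 were above it, against 45.4% of all genes. VIM, the mesenchymal intermediate filament, was by far the brightest of either list at rank 102, with 21818, 21831, 21109.6 and 19029. CDH2, N-cadherin, gave 2156, 1806, 1880.1 and 2060.5, while CDH1, E-cadherin, gave 306, 269, 188 and 289. Both were above the reference in every array, CDH1 on 1 of its 2 probe sets. The transcription factors ZEB1 (2085 ± 171) and SNAI2 (1727 ± 239) were above it, and SNAI1 (62.9, 20.1, 101 and 5.73) was not. The matrix genes COL6A1 (1610.5 ± 45.2, on 2 of 8 probe sets), FN1 (935 ± 137, on 5 of 7) and COL1A1 (838 ± 198, on 3 of 5) were above the reference. Those of mature fibroblasts, POSTN (41.9 ± 12.2), LUM (53.6 ± 37.1) and, named after the fact, COL1A2 (53.98 ± 29.1) and DCN (59.01 ± 46.6), were not.

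On the epithelial side, junction genes led. DSP, desmoplakin, gave 3465, 3411, 3328 and 3076, OCLN, occludin, 2334, 3301, 3624 and 3325, TJP1, the tight junction scaffold, 2785 ± 231, and JUP, plakoglobin, 643 ± 96.2. Among keratins, KRT18 gave 2217 ± 161, KRT8 228 ± 26.00 and KRT7 148 ± 29.1, the last above the reference on 1 of its 4 probe sets. The basal keratin KRT5 was below the reference (4.35, 12.8, 102 and 16.7). KRT5 was high on array 3 alone. The claudins CLDN3 (17.1 ± 10.50) and CLDN7 (9.85 ± 3.42) were the lowest of the list.

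**Figure D4:**
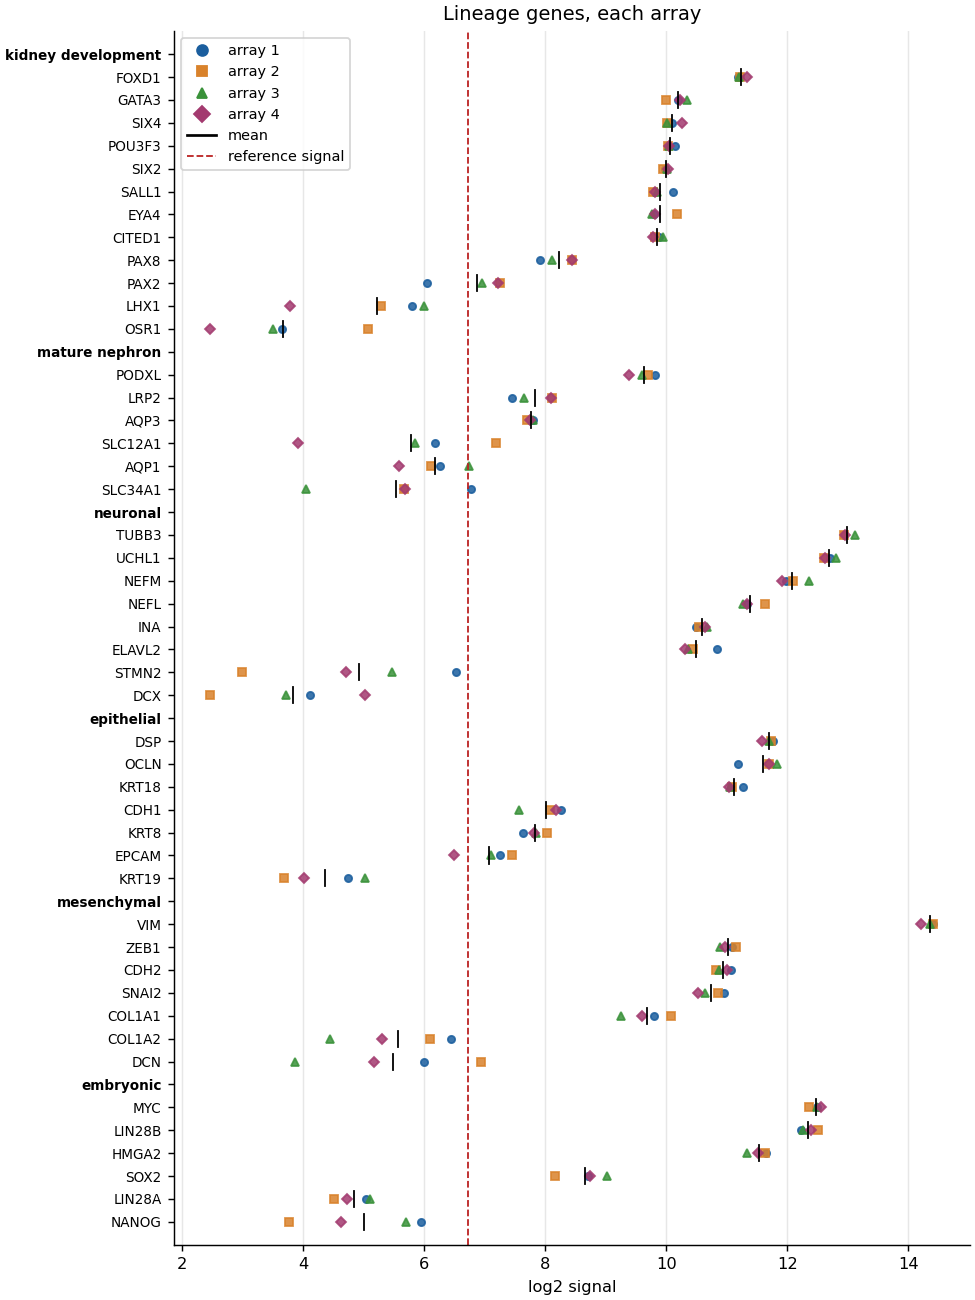
Log2 signal on each of the 4 arrays (coloured markers) with the mean as a vertical line, for genes of 6 lineage lists, and the reference signal as a dashed line. Markers cluster tightly for genes to the right of the line, such as SIX2 and VIM, and scatter widely for those to its left, such as DCX.

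HOX genes encode the transcription factors that mark position along the body axis, and their clusters were largely above the reference. This held for 9 of 10 measured genes of the HOXB cluster, 7 of 9 of HOXC and 7 of 8 of HOXD. Of all genes 58.2% were above it, and of protein-coding genes 65.8%. In every array it held for 9, 6 and 6 genes of these clusters. With a gene's median probe set the counts were 8, 7 and 6, against 49.5% of all genes. Only 1 gene of the HOXA cluster was measured with a single symbol, HOXA2 (139 ± 23.2). HOXD13, of the far posterior end, was the brightest HOX gene with 2878, 3470.5, 2974 and 3299.7, and HOXD10 gave 2849, 3157, 3143 and 2667. HOXC6 (2606 ± 481), HOXC10 (2017 ± 136) and HOXC4 (1843 ± 415) led their cluster, ahead of HOXC9 (642 ± 93.4), HOXC13 (512 ± 96.8), HOXC11 (482 ± 189) and HOXC5 (139 ± 53.99). The HOXB cluster was led by HOXB7 (2133, 2167, 2091 and 2063), HOXB3 (1842, 1892, 2012 and 1855) and HOXB6 (1738 ± 281). HOXB2 (1397 ± 168), HOXB9 (1299 ± 336), HOXB5 (531 ± 67.4) and HOXB13 (356 ± 91.2) were also above it. In HOXD the list went on with HOXD11 (719 ± 137), HOXD9 (507 ± 50.3), HOXD4 (389 ± 106), HOXD8 (356 ± 47.3) and HOXD1 (110.0 ± 15.4). The 4 genes not above it were HOXB1 (60.5 ± 48.2), HOXC8 (68.9 ± 9.86), HOXC12 (25.9 ± 14.4) and HOXD12 (9.82 ± 10.50), so each of these 3 clusters held a dim gene beside bright neighbours.

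TGF-beta and BMP signalling had 25 of 26 measured genes above the reference, Notch 18 of 21, Wnt 24 of 30 and Hedgehog 11 of 14, against 58.2% of all genes. With a gene's median probe set the Hedgehog count was 5, against 49.5% of all genes. The 6 Wnt genes not above it were all ligands, and so were the 3 Hedgehog genes. ID2, a target and inhibitor of helix-loop-helix factors, gave 5476, 7085, 6894 and 6301, SMAD5 3034 ± 648 and the receptor ACVR2B 2599.7 ± 492. HEY1, a target of Notch, was the brightest gene of these 4 lists at rank 215, with 14449, 14784, 13126 and 12425; the pathway's DNA-binding factor RBPJ gave 5026 ± 694 and the receptor NOTCH2 3407 ± 126. For Wnt, TCF7L2 gave 3189.7 ± 362, GSK3B 1895 ± 355 and CTNNB1, beta-catenin, 1934, 797, 3108 and 2529. On its brightest probe set CTNNB1 was lowest on array 2 and highest on array 3. Its next brightest gave 1342, 727, 655 and 634, highest on array 1 and lowest on array 4. For Hedgehog, the coreceptor GAS1 gave 2209 ± 366, the factor GLI3 986 ± 119.5 and the receptor PTCH1 972 ± 59.8.

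Growth factor receptors were above the reference in 20 of 26 cases (76.9%, against 58.2% of all genes). With a gene's median probe set the count was 13, against 49.5% of all genes. The brightest were MET, the receptor of hepatocyte growth factor (3032, 2059, 2588 and 2339.6), FGFR3 (1149 ± 95.1) and FGFR2 (996 ± 120.1). Nuclear hormone receptors were above the reference in 19 of 24 (79.2%, or 12 with a gene's median probe set). The orphan receptor NR2F1 (3938, 2988, 3013 and 2906), the glucocorticoid receptor NR3C1 (2770.4 ± 335) and NR2F6 (1579 ± 181) were brightest. NR2F1 was highest on array 1. G protein-coupled receptors were above it in 10 of 31 (32.3%; 4 above the 99th percentile of olfactory receptors), and the brightest 3 were the adenosine receptor ADORA2B (939 ± 66.2), the chemokine receptor CXCR4 (639 ± 58.9) and the thrombin receptor F2R (385 ± 162). The muscarinic receptor CHRM1 (17.6 ± 12.3), the dopamine receptor DRD1 (25.5 ± 29.6) and the adrenergic receptor ADRA2A (6.89 ± 2.55) were lowest. Voltage-gated ion channels were above it in 5 of 21 (23.8%; 14 above the 40th percentile of all probe sets), with KCNH2 (575 ± 102), CACNB3 (387 ± 51.6) and KCNC1 (316 ± 28.2) first and SCN1A (34.9 ± 30.5), SCN3A (24.4 ± 31.2) and KCNA5 (11.7 ± 8.24) last.

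Of nucleic acid sensors and their adaptors, 7 of 20 genes were above the reference (35%), of Toll-like receptors and inflammasome genes 2 of 18 (11.1%), and of interferons and their targets 7 of 20 (35%), against 58.2% of all genes. Above the 40th percentile of all probe sets these counts were 8, 7 and 12. The brightest of the first list were EIF2AK2, the kinase PKR that double-stranded RNA activates (2235, 2202, 1839 and 2040.1), the kinase TBK1 (1189, 1494, 1614 and 1620.4) and the transcription factor IRF3 (1179.8, 1166, 1362 and 1097). At the low end, TLR3, the endosomal receptor for double-stranded RNA, gave 9.65, 37.6, 17.2 and 29.9, ZBP1 8.44, 9.55, 15.6 and 6.72 and DHX58 11.5, 6.58, 5.67 and 9.26. CGAS and STING1, the cytosolic DNA sensor and its adaptor, were named after their values were seen, with 194, 52.8, 102 and 145 for CGAS and 15.00, 138, 45.6 and 18.7 for STING1. CGAS was just above the reference in the mean and below it on arrays 2 and 3. STING1 passed a signal of 105 on array 2 alone, where it was under that array's own reference of 209.5.

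Of the Toll-like receptor and inflammasome list, the adaptors MYD88 (433, 420.1, 345 and 437) and TIRAP (138, 349, 248 and 140.0) were above the reference. NLRP1 stood just under it (75.2, 122, 111 and 110.1), and the inflammasome adaptor PYCARD (11.8, 9.04, 13.5 and 3.75), NLRP3 (26.6, 13.6, 50.7 and 3.09) and IL18 (12.9, 3.94, 65.7 and 17.1) were far under it. The interferon receptor and its kinases were above it, with IFNAR2 at 1204 ± 249.7 and the kinases JAK1 at 2304 ± 194 and TYK2 at 1016 ± 414. The interferon gene IFNB1 (2.73, 10.96, 8.25 and 7.23) and the interferon targets BST2, tetherin (4.40, 5.09, 6.37 and 5.66), and IFI44L (3.65, 22.9, 21.4 and 5.65) were at the bottom, 48 hours after plasmid DNA had been added. No cytokine or chemokine of 20 measured was above the reference in the mean of the 4 arrays, but 2 were without array 2, and 4 were above the 40th percentile of all probe sets. The nearest was IL1A (104, 80.6, 116 and 111), above 105 on arrays 3 and 4 and under it in the mean. Against each array's own reference IL1A was above on array 3 alone. Next were CXCL12 (93.2 ± 39.6) and CXCL1 (60.1 ± 23.4). CXCL10 gave 16.6 ± 13.04, CSF3 10.99 ± 3.39 and IL2 4.45 ± 0.477.

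Of 17 measured genes of antigen presentation, 11 were above the reference (64.7%, against 58.2% of all genes and 65.8% of protein-coding genes). Class I genes led, HLA-C with 11926, 11139.8, 9573 and 10122 and HLA-B with 8260.0, 8169, 8046 and 8342. Their light chain B2M gave 9359.5, 8430.5, 10044 and 9892. HLA genes are close in sequence, so signal from one may reach the probe set of another. HLA-DRA (9.14, 21.97, 4.91 and 6.52) and CD74, the invariant chain (11.9, 11.8, 11.96 and 35.3), of class II, and the immunoproteasome subunit PSMB8 (4.63, 7.60, 8.74 and 7.001) were the lowest. CD74 was higher on array 4 than on the others and still under the reference.

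In drug metabolism, 12 of 22 genes were above the reference (54.5%, against 58.2% of all genes; 18 and 5 with the 40th percentile of all probe sets and the 99th of olfactory receptors as the bar), with the conjugating enzymes GSTP1 (6031 ± 530.4) and GSTM3 (4527 ± 393) and the epoxide hydrolase EPHX1 (1943 ± 435) brightest. The liver enzymes CYP2D6 (42.5 ± 23.8), UGT1A1 (26.7 ± 23.5) and NAT2 (16.8 ± 11.8) were lowest. In the machinery of small RNAs, 13 of 16 were above it, with the nuclear transport GTPase RAN (22636 ± 1606), PRKRA (4008 ± 265) and DICER1, the enzyme that cuts microRNA precursors (3153, 2993, 2683 and 3066), first. The 3 genes not above it were PIWIL1, PIWIL2 and PIWIL4, the PIWI proteins of the germline. AGO2, the slicing Argonaute, gave 534 ± 98.5, a value named after it was seen.

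Markers of other cell types were counted in the same way. Of 120 measured markers of 11 cell types, 19 (15.8%) were above the reference, against 58.2% of all genes. The count was 43 above the 40th percentile of all probe sets and 3 above the 99th percentile of olfactory receptors. These lists too were chosen with earlier results of these data known, so the count checks neither the label nor the reference. No marker of pancreas (9 measured) or of photoreceptors (11 measured) was above it, and B cells, T cells, myeloid cells, erythroid cells, endothelium and germ cells had 1 each. Those single genes were CR2 (96.3, 186, 137 and 69.3), CD8A (144, 197, 114 and 126), ITGAM (101, 152, 88.9 and 94.6), EPOR (414, 777, 703 and 489.7), FLT1 (228, 128, 180.4 and 227) and GDF9 (139.8, 193, 193 and 109). EPOR, the erythropoietin receptor, was above it in every array and on 4 of 5 probe sets. The B cell count was 0 without array 2 or array 3 and 3 without array 4, and the myeloid count was 0 without array 1, 2 or 3, so neither holds when an array is left out. Hepatocytes had CYP2E1 (238 ± 60.4), TF (158 ± 39.4) and ALB (124 ± 19.8), none above the reference in every array.

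Adipocytes and striated muscle had more, with 5 of 10 and 5 of 13. The muscle count was 2 without array 1 and 3 without array 3, and above the 99th percentile of olfactory receptors it was 0, with 2 for adipocytes. The adipocyte genes were PPARG, the nuclear receptor of fat cell differentiation (788, 611, 570.3 and 629), CFD (389 ± 101), CIDEC (310.2 ± 87.7), LIPE, hormone-sensitive lipase (217 ± 60.1), and LPL (119 ± 40.2), the last outside the rule. Those of muscle were TNNI3 (243, 266, 226 and 261), TNNT3 (120.0 ± 33.4), TTN (117 ± 42.7), ACTA1 and ACTC1. Among the 8 muscle markers not above the reference, CKM and MYOG were at ranks 19074 and 18376, MYOG with 10.9, 24.1, 7.77 and 11.9.

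The promoters of CKM and MYOG, the 2 markers of hepatocytes or muscle with the lowest ranks that had an entry, are shown for contrast with that of RPS23. Again these are the 250 bases before the start in the RefSeq table (GRCh38.p14), CpG in capitals, from chr19:45322876-45323125 and chr1:203086013-203086262, both on the minus strand.
CKM: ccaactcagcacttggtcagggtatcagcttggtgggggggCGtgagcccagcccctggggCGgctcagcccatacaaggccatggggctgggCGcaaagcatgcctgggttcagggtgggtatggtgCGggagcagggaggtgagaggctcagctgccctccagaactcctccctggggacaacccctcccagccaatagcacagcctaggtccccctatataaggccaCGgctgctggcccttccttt
MYOG: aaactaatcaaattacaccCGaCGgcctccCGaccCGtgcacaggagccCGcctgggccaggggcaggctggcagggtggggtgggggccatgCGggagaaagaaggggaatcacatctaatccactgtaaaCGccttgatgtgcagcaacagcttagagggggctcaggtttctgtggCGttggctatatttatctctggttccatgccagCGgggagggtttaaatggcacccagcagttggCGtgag
CKM has 5 CpG dinucleotides, a ratio of 0.193 to the number its composition would give, and MYOG has 10, a ratio of 0.488, against 16 and 0.898 for RPS23.

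This contrast ran through the whole ranking. Of 15384 ranked genes with a promoter in the table, CpG-rich promoters (a ratio over 0.6 and over 50% G and C in the 250 bases) were 79.5% of those above the reference and 32.0% of those not above. The share went from 23.8% in the lowest decile of signal to 85.7% in the highest, and it was 16.5% among the markers of other cell types. The letters TATAAA, searched on the sense strand 40 to 20 bases before the start, were in 1.45% of promoters of genes above the reference and 5.31% of the rest. The letters GGGCGG on either strand were in 68.6% and 36.4%, and those of CCAAT on either strand, within 150 bases before the start, in 24.2% and 19.7%. A match is a description of the sequence and not evidence that a factor binds. Genes share promoter classes and families, so these counts are a description over genes with no test.

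A start of transcription at C followed by 4 pyrimidines, the mark of messages whose translation follows growth signals, was concentrated at the bright end. It was found in 4.50% of all ranked genes with an entry and in 9.35% of those in the highest decile. Among ribosomal protein genes it was found in 34 of 47 (72.3%), and among the brightest 100 genes in 35 of 83 (42.2%). Of the 42 genes in that group that do not encode ribosomal proteins, 7 had it (16.7%), namely EEF1A1, TPT1, NACA, NPM1, EEF2, BTF3 and TUBB, most of them with roles in translation. Gene length did not follow signal in 1 direction. The median was 14.0 kb in decile 1, 40.4 kb in decile 8 and 23.5 kb in decile 10, against 24.7 kb for all genes and 5.45 kb for the brightest 100.

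**Figure D5:**
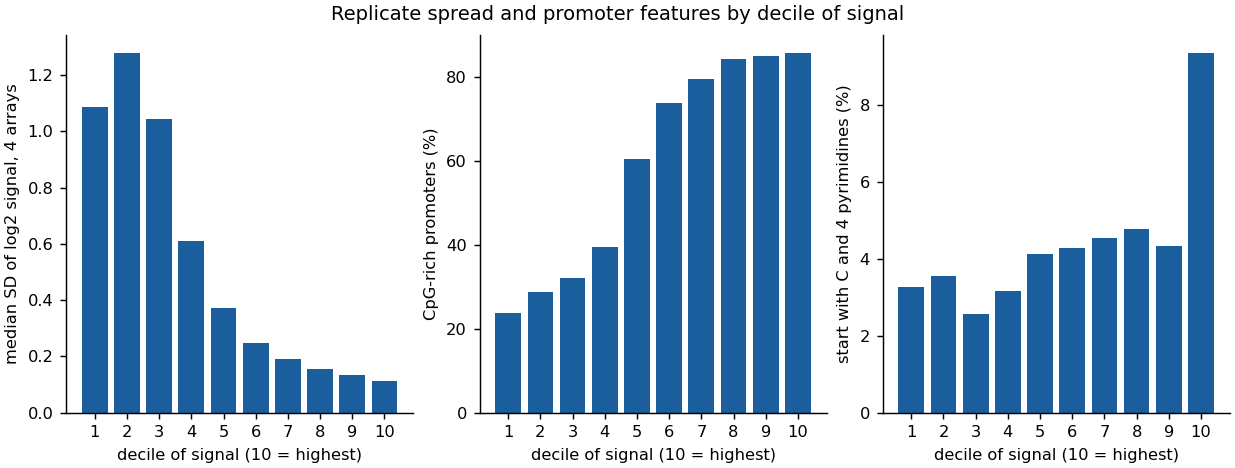
Median SD of log2 signal over the 4 arrays, percentage of CpG-rich promoters, and percentage of promoters starting at C and 4 pyrimidines (vertical axes) by decile of mean signal (horizontal axes, 10 the brightest). The median SD falls from 1.09 to 0.11, CpG-rich promoters rise from 23.8% to 85.7%, and the pyrimidine start stands out in decile 10, at 9.35%.

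The spread over the arrays was small for most bright genes and large for a few. The steadiest genes above the reference in every array were ETFA, of mitochondrial fatty acid oxidation (9176, 9187, 9088 and 9154), HCCS, which attaches heme to cytochrome c (2432, 2436, 2454 and 2421), CLIC1 (4867, 4836, 4844 and 4899.8), BCLAF1 (14282, 14195, 14365 and 14177) and the mitotic kinesin KIF15 (1806, 1829, 1801 and 1815), each with an SD of log2 signal of 0.01. This steadiness is that of the brightest probe set. Every other probe set of BCLAF1 varied more, the next brightest giving 2049, 3799, 4901 and 4419, an SD of 0.56. The other probe set of HCCS had an SD of 0.14. The least steady gene was TAF15, an RNA-binding protein of the FET family, with 373, 2430.4, 2464 and 2378, an SD of 1.35. Array 1 stood alone as low, and the other 3 lay close together. CSTF2T (392, 1234, 1515 and 1472) and PBX2 (194, 844, 643 and 698) were also low on array 1, as was HOXB8 (276, 805, 881 and 1197). The other probe set of CSTF2T differed much less between arrays, with 662, 721, 783 and 728.

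KMT5A, the histone H4 lysine methyltransferase, was high on array 2 on its brightest probe set (2143, 6607, 1738 and 2112). Its other probe sets, also above the reference, were all lowest on array 2, the next brightest with 653, 461, 841 and 689. SAMD12 was also high on array 2 (223, 617, 176 and 164). NDUFS7, a subunit of complex I, was highest on array 1 (1605, 419, 665 and 438), and so was INHBC (706, 312, 182 and 134). Of the 100 genes with the largest SD, array 2 was the array farthest from the median for 48, array 1 for 37, array 3 for 10 and array 4 for 5. Arrays 1 and 2 are also the ones with the Bacillus control signal. The labels name no batch, so the part of handling in these differences was not tested.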

How the data were processed

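Gene expression was read from 12 oligonucleotide arrays, of which the 4 labelled with the empty vector were used and the other 8 columns were not. The deposited values are intensity signals on a linear scale, made by the authors with MAS5, per the submitters' processing notes (version not given in the sources used here). Every column had the same 2% trimmed mean, 500.1, so the arrays had been scaled to a common level before deposit. Detection calls and an annotation version are not given in the sources used here. Symbols came from the platform annotation, brought up to date by Entrez identifier (0 changed, 54 without a RefSeq row); 1801 probe sets with several symbols and 11777 without a listed gene, controls included, were left out of the ranking.

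The log2 of each signal was computed without an offset in Python 3.11.15 (numpy 2.4.6, pandas 2.3.3), a gene took its brightest single-symbol probe set, and means and SDs are over n = 4 arrays. A gene was above the reference when its mean log2 signal exceeded the 95th percentile of olfactory receptor probe sets, and above it in every array when each array exceeded its own 95th percentile (signals of 113, 209.5, 103 and 125). No groups were compared, since the design is 1 group; Dixon's outlier criterion for 4 samples was applied to each named gene. The number of arrays limits the precision. The ranking step was checked on simulated data. For most probe sets their spread was set below that of genes not above the reference (a median SD of 0.98). The check therefore does not show how well such dim genes are placed.

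The samples and the 67 gene lists (1064 symbols) were chosen with earlier results of these data known. The text names 305 genes by rule: the 25 brightest; the 3 brightest of each core and pathway list, with up to 3 of the dimmest where fewer than 75% were above the reference; up to 8 per lineage list above it and up to 3 of the dimmest; up to 4 per list of other cell types above it; all isozyme members; and the 8 largest and 5 smallest SDs among genes above it in every array. Genes outside the rule are the marked ones, with EPCAM, KRT19 and SOX2 in plots, and they were chosen after their values were seen. Promoters are from the RefSeq table (GRCh38.p14), matched by symbol for 15384 genes. Alternatives were quantile normalization, the median probe set, no _s_at or _x_at probe sets, an offset of 16, other references and leaving out each array.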

Additional observations from a re-analysis of the deposited data

Results flagged for a closer look

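In 18 of the 305 named genes (5.90%) 1 of the 4 arrays lay far from the other 3, with a gap to its nearest neighbour, as a share of the whole range of log2 signals, above Dixon's critical value for 4 samples. Chance alone marks about 1 in 20 groups that were not chosen for their spread. That rate does not hold for the 8 genes named for the largest SD, of which TAF15, CSTF2T and KMT5A are among the 18, and the genes are not independent. The share of the range is given for each, on its brightest probe set. Other probe sets of KMT5A and CSTF2T gave different values, as described above.

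Array 1 was the one apart for 8 genes. It was low for TAF15 (0.981, a signal of 373 against 2378 to 2464), CSTF2T (0.848, 392 against 1234 to 1515) and HOXC4 (0.835, 1232 against 1958 to 2146). It was high for RPA3 (0.835, 14210 against 10840 to 11336), PTTG1 (0.867, 10416 against 9120 to 9282), NR2F1 (0.881, 3938 against 2906 to 3013), HOXB2 (0.916, 1649 against 1297 to 1323) and POU3F3 (0.922, 1137 against 1044 to 1051).

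Array 2 was high for KMT5A (0.843, 6607 against 1738 to 2143), EYA4 (0.899, 1161 against 871 to 897) and CYP27B1 (0.853, 578 against 431 to 450), and low for SLC25A31 (0.902, 4.52 against 51.0 to 66.3), which was not above the reference. Array 3 was high for TUBB3 (0.845, 8875 against 7797 to 7955) and low for MYD88 (0.833, 345 against 420 to 437) and for CLDN7 (0.878, 4.79 against 10.8 to 12.1), the latter also not above the reference. Array 4 was low for RPS6 (0.839, 40621 against 44795 to 45641) and RPL41 (0.848, 33844 against 39878 to 41070), as it was for most of the brightest genes, and high for CD74 (0.985, 35.3 against 11.8 to 12.0), where all values were under the reference.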

How the results depend on the processing

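No paired analysis was possible because only 1 group is described and its values come from no test. Of 19775 genes, 11500 were above the reference, and the count was 11503 with quantile normalization, 11520 with an offset of 16, 9793 with a gene's median probe set, 9546 of 17100 genes without _s_at and _x_at probe sets, 14044 with the reference at the 40th percentile of all probe sets, 8981 with the 99th percentile of olfactory receptors, and 11187 to 11596 without each array in turn. Leaving the OR7E family out of the reference, an alternative chosen after seeing the data because 6 of the 7 olfactory receptor probe sets above it are pseudogenes, gave 12588. The median SD of genes above the reference, 0.178, was 0.205 with the median probe set, 0.203 without _s_at and _x_at probe sets, 0.209 with the 40th percentile, 0.154 with the 99th, and 0.143 to 0.181 without each array, lowest without array 1. Markers of other cell types above the reference, 19 in the main count, numbered 11 with the median probe set, 43 with the 40th percentile and 3 with the 99th, so that count rests on where the bar is set. Core genes above it, 232, numbered 152 without _s_at and _x_at probe sets, where fewer genes are measured. Of the 25 brightest genes, 24 were kept with quantile normalization, and 23 or 24 without an array. The number kept was 14 with the median probe set and 5 without _s_at and _x_at probe sets. The rank percentile of named genes moved for 210 and held for 95 with the median probe set. Without _s_at and _x_at probe sets it moved for 183 and held for 59. With quantile normalization it held for all 305. The count above the reference moved for 13 lists and held for 54 with the median probe set. Without _s_at and _x_at probe sets it moved for 23 and held for 44. Most named ranks therefore depend on which probe set stands for the gene.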
